A study of Homo sapiens with 6 samples.

Results

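The 46 genes described here encode matrix proteases and the proteins that hold them in check. They comprise 14 matrix metalloproteinases (MMPs), 4 tissue inhibitors of metalloproteinases (TIMPs), 8 ADAM and 10 ADAMTS proteases, the plasminogen activators with their receptor and 2 of their inhibitors, 2 cathepsins, BMP1, RECK and A2M. They were taken by gene symbol from the 60660 genes of the count files, and all 46 were matched to an Ensembl identifier. The question was how their RNA differs between control and LINC01133 knockdown cells. The cells were 12Z, an established epithelial line from endometriosis, a disease in which endometrium-like tissue grows outside the uterus. They were transfected with a non-targeting siRNA (3 control libraries) or with siRNA LINC01133a against the long noncoding RNA LINC01133 at 10 nM (3 knockdown libraries), and RNA was taken after 72 h in both groups. LINC01133a was the only targeting siRNA in the libraries, the knockdown was transient, and no untransfected cells were sequenced in these 6 libraries. The study describes the 3 libraries of a group as biological replicates.

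MMPs are secreted or membrane-bound enzymes that use a zinc ion to cut collagens and other matrix proteins, and they are made as inactive precursors. TIMPs occupy their active site. ADAM proteases release the outer parts of membrane proteins, whereas ADAMTS proteases are secreted and cut proteoglycans, fibrillin-associated proteins or the ends of procollagen. Plasminogen activators turn plasminogen into plasmin, which dissolves fibrin and activates several MMP precursors, and serpins such as SERPINE2 block the activators. In the endometrium these systems take part in menstrual breakdown and repair, and they have been studied as means by which endometriotic cells enter the peritoneum.

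The targeted RNA checked the labels. LINC01133 had 823 ± 12.8 normalised counts in control and 133 ± 4.68 in knockdown libraries (SD, n = 3 each), which is 16.2% of the control level. Total counts on genes ranged from 27742562 to 37551194 per library. Epithelial keratins were abundant, with KRT8 at 469 and KRT18 at 579 RPKM in control libraries, where RPKM is a level per kilobase of exon, scaled to library size, computed here from the counts. EPCAM and CLDN4 were close to 0 on this scale (0.173 and 0.0971), and ESRP1 had at most 1 count in a library. The cells also held RNA of 10 of 10 stromal and mesenchymal markers, among them VIM (316) and COL1A1 (301). Summed over the 10 markers, this level was 836 to 922 in control and 698 to 736 in knockdown libraries. That of 9 epithelial markers was 1569 to 1659 and 994 to 1031. By the rule given below, 4 of the 8 epithelial markers tested were called lower and 0 higher. Of the 10 stromal and mesenchymal markers, 2 were called lower and 1 higher. Over all genes, 6.43% were called lower and 5.3% higher. On adjusted p alone, 5 of the 8 and 7 of the 10 were lower and 1 of the 10 was higher, against 25% and 23.3% of all genes. Of other cell types, the leukocyte markers CD3E and MS4A1 had no count, and the sum of 6 leukocyte markers, nearly all of it CD14, was 30.0 to 33.7 RPKM in control and 15.6 to 16.7 in knockdown libraries. The sum of 5 endothelial markers, nearly all of it KDR, was 7.42 to 7.57 and 4.62 to 4.87. That of 4 smooth muscle markers was 1.42 to 1.52 and 2.55 to 3.21. Most of this rise was CNN1, with means of 0.858 in control and 2.21 in knockdown libraries. ACTA2 had 0.492 and 0.680, whereas DES was lower, at 0.112 and 0.0350, and MYH11 was near 0 in both groups (0.00191 and 0.00106). The part of these shifts in the changes described next was not tested, and in bulk RNA a smaller share of cells with a given profile and less RNA per cell cannot be told apart.

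Of the 46 genes, 40 passed the filter on low counts and were tested, and the other 6 are given with their counts. A gene was called when it differed by a fold change over 1.5 and an adjusted p under 0.05 in edgeR's quasi-likelihood test, with p-values adjusted by Benjamini-Hochberg over all 15155 genes of the fit. By this rule 11 of the 40 were called (27.5%), against 11.7% of all genes tested. There were 8 lower in knockdown cells (against 6.43% of all genes) and 3 higher (against 5.3%). PLAT, PLAU, SERPINE2, ADAMTS15, MMP15, MMP1, MMP28 and ADAMTS9 fell, while A2M, ADAMTS6 and ADAMTS5 rose. On adjusted p alone, 27 of the 40 (67.5%) differed, against 48.3% of all genes, with 19 lower and 8 higher, where 25% and 23.3% of all genes were lower and higher. Control and knockdown libraries did not overlap for 26 of the 40 (65%), against 57.3% of all genes. The median log2 fold change of the 40 was -0.13, beside 0.0032 over all genes tested. The split of calls over all genes depended on scaling, since 45.2% of them were higher with the scaling used and 55.9% with library size alone, but the same 11 of the 40 were called under both.

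**Figure D1:**
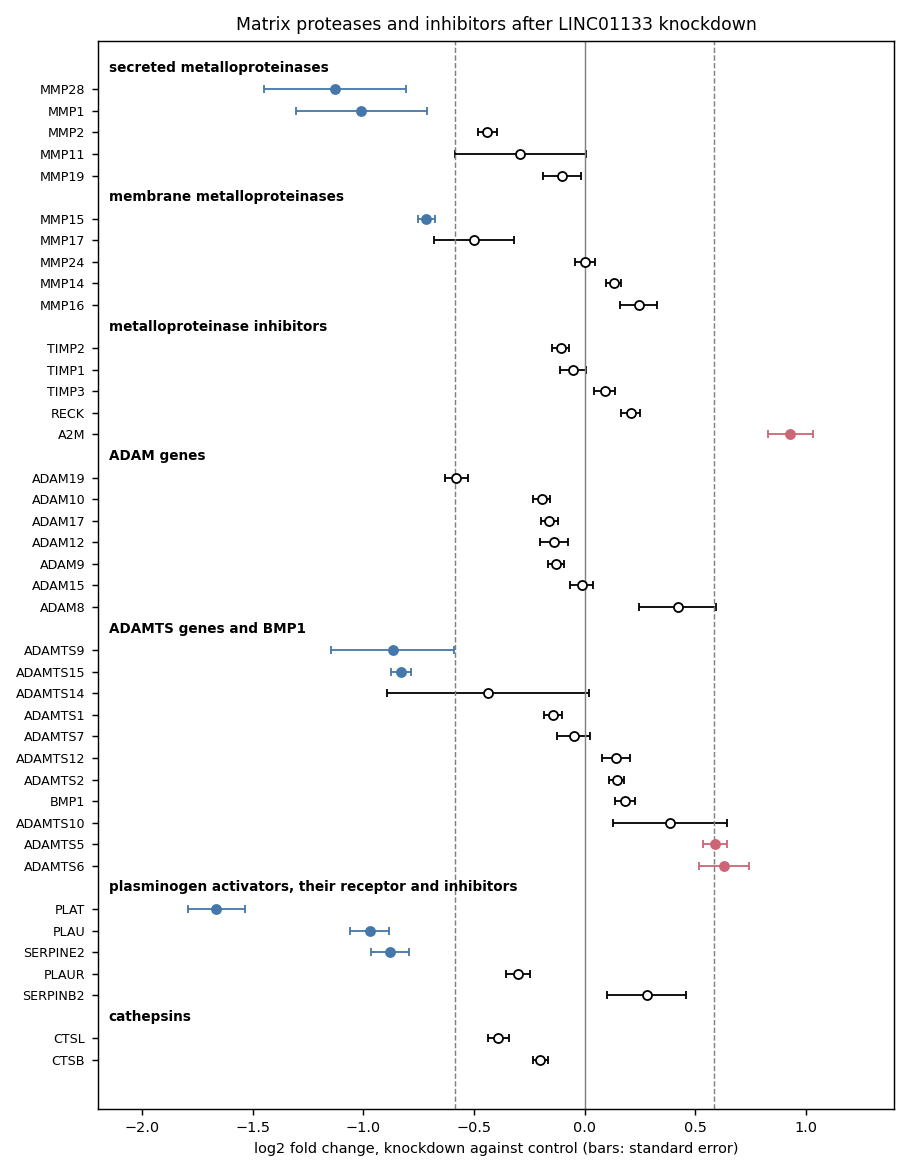
Log2 fold change of knockdown against control (x axis) for the 40 genes tested, one row per gene and grouped by role, with standard errors as bars. Filled points passed both cutoffs, blue for lower and red for higher in knockdown, and dashed lines mark a fold change of 1.5. PLAT at -1.66 lies furthest to the left and A2M at 0.93 furthest to the right, and no ADAM gene passed both cutoffs.

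The largest decrease was in the plasminogen activator system. Of its 5 genes, 3 were called, each lower, against 6.43% of all genes called lower. On adjusted p alone 4 of 5 were lower, against 25% of all genes. PLAT encodes the tissue-type activator. It had 1010, 1249 and 802 normalised counts in control libraries 1 to 3 and 342, 324 and 294 in knockdown libraries 1 to 3. Each knockdown library held less than the lowest control library, in a control group that spanned a wider range. The mean fell from 1020 ± 224 to 319.9 ± 24.2 (SD, n = 3 each), or 31.4% of control. On the log2 scale this is a change of -1.66 with a standard error (SE) of 0.131 (adjusted p = 3.6e-07, edgeR). PLAT (ENSG00000104368.19) lies on chromosome 8 from 42174718 to 42207709 on the minus strand of GRCh38.

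PLAU encodes urokinase, the activator that acts on the cell surface. Its normalised counts were 412, 368 and 435 in the controls and 216, 202 and 201 after knockdown, without overlap. This is 50.9% of the control level, with a log2 fold change of -0.97 (SE 0.087, adjusted p = 1.2e-06, edgeR). PLAU is on chromosome 10 from 73909177 to 73917496 on the plus strand, and 31% of its exon bases are shared with C10orf55 on the other strand, from which only 0.383% of the stranded counts at PLAU came. PLAUR, the receptor that holds urokinase at the membrane, was lower by less. It had 1278, 1212 and 1168 normalised counts in control and 991, 1038 and 938 in knockdown libraries, again without overlap but under the fold change cutoff (log2 fold change -0.30, adjusted p = 3.9e-04, edgeR).

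SERPINE2 encodes protease nexin-1, a secreted serpin that inhibits thrombin, urokinase and the tissue-type activator. It was among the members with the most RNA per length in control libraries. Control libraries held 11338, 13158 and 9950 normalised counts and knockdown libraries 6442, 6685 and 5558. The highest knockdown library lay well under the lowest control library, and the log2 fold change was -0.88 (SE 0.086, adjusted p = 2.6e-06, edgeR). SERPINE2 is on chromosome 2 from 223975045 to 224039318 on the minus strand. SERPINB2, another serpin that inhibits urokinase, had few counts, 45.5 ± 5.72 in control and 55.2 ± 7.94 in knockdown libraries (SD, n = 3 each), and its libraries overlapped (log2 fold change 0.28, adjusted p = 0.21, edgeR). GENCODE v44 places 20% of the exon bases of SERPINB2 in another gene of the same strand. The counts were made with Gencode v36, and whether reads there were left uncounted as ambiguous was not tested. Summed over these 5 genes, the level was 50.7 to 63.1 RPKM in control libraries and 29.5 to 34.4 in knockdown libraries.

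Other genes of the system lie outside the 46, and the 3 given next were named after their values had been seen. ANXA2 and S100A10 together form a plasminogen receptor at the membrane. Both were slightly lower, with log2 fold changes of -0.20 and -0.25 (adjusted p = 5.0e-04 and 1.0e-04, edgeR). No read was counted on PLG, which encodes plasminogen, in any of the 6 libraries. Taken singly, a count of 0 allows an expected count of up to 3 in that library, and the 6 together allow less.

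**Figure D2:**
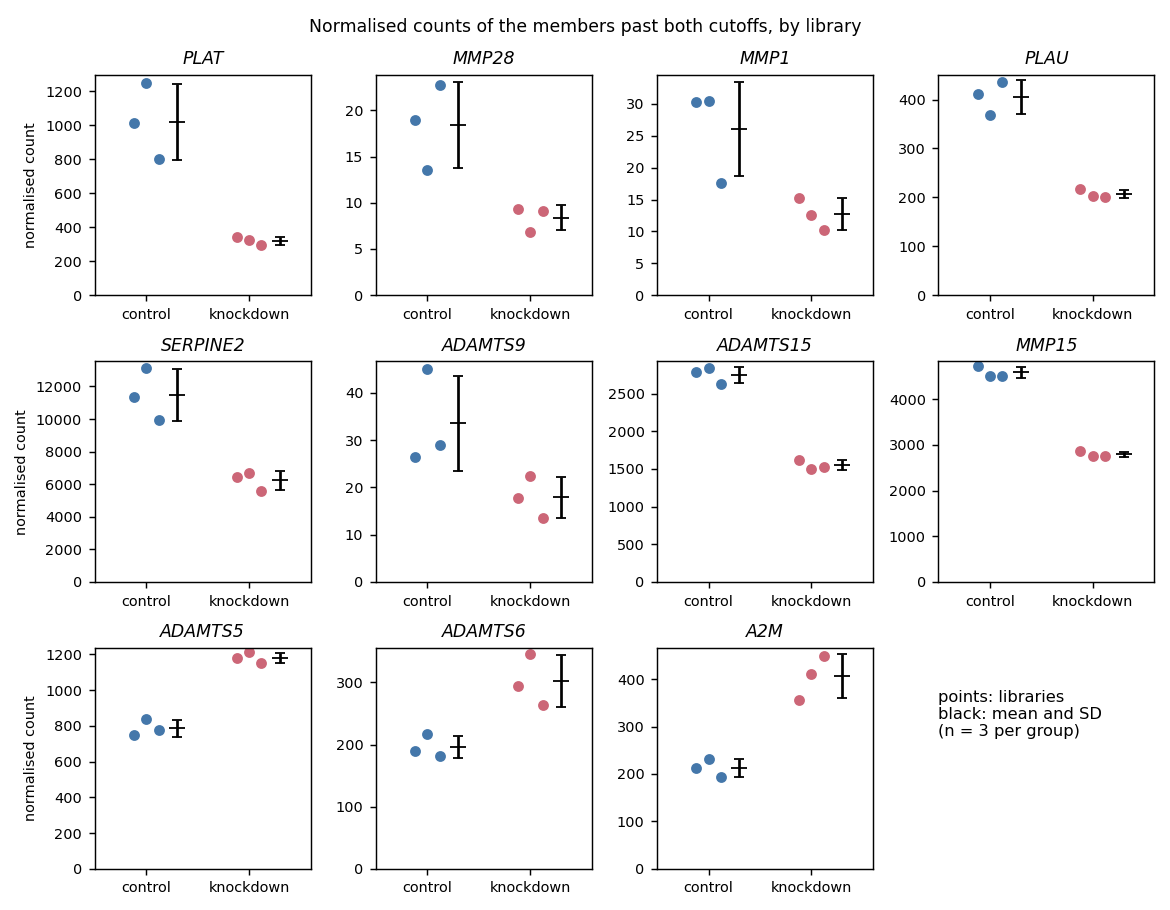
Normalised counts (y axis, from 0) of the 11 genes past both cutoffs, with one point per library, control in blue and knockdown in red, and the mean with SD beside them (n = 3 per group). In every panel the 3 knockdown libraries lie on one side of the 3 control libraries, and MMP1, MMP28 and ADAMTS9 have counts under 50 in each library.

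Among the secreted MMPs, 5 of 9 were tested and 2 were called, both at low counts, against 11.7% of all genes called. The most abundant secreted MMP was lower without reaching the fold change cutoff. MMP2, or gelatinase A, cuts denatured collagen and basement membrane collagen. It had 1860, 1743 and 1764 normalised counts in the controls and 1272, 1336 and 1357 after knockdown. All knockdown libraries were below all control libraries, at 73.9% of the control level (log2 fold change -0.44, SE 0.045, adjusted p = 3.9e-06, edgeR). MMP19 followed in abundance, with 288, 324 and 295 and 264, 293 and 288 normalised counts. Its libraries overlapped, and the log2 fold change of -0.10 had an adjusted p of 0.34 (edgeR). At MMP19, 25.6% of the stranded counts came from the other strand, where TMEM198B overlaps it.

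MMP1, the interstitial collagenase, had 30.3, 30.4 and 17.6 normalised counts in control and 15.3, 12.6 and 10.2 in knockdown libraries. The groups did not overlap, but control library 3 lay close to the knockdown libraries. The log2 fold change was -1.01 (SE 0.296, adjusted p = 0.012, edgeR), and the call was lost without control replicate 1 (adjusted p = 0.061), with DESeq2 (0.058) and in the unstranded counts (0.061). MMP28, or epilysin, had 18.9, 13.5 and 22.8 in control and 9.32, 6.80 and 9.08 in knockdown libraries, with a log2 fold change of -1.13 (SE 0.321, adjusted p = 0.01, edgeR). Its groups did not overlap either, but the call was lost without control replicate 3 (adjusted p = 0.053), without knockdown replicate 2 (0.05) and with DESeq2 (0.08). Neither gene was tested when at least 10 counts were required in every library. MMP11, or stromelysin-3, had 20.8 ± 4.14 and 17.2 ± 5.86 normalised counts (SD, n = 3 each) with overlapping libraries (adjusted p = 0.45, edgeR).

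The other 4 secreted MMPs were too low to test. MMP3 and MMP10, both stromelysins, MMP7, or matrilysin, and MMP9, or gelatinase B, had at most 13 counts in any library. MMP10 had 0, 3 and 1 counts in the controls and 0, 0 and 0 after knockdown, MMP7 1, 0 and 1 and 1, 6 and 0, and MMP9 2, 1 and 0 and 1, 1 and 1. The counts of MMP3 were higher in knockdown, with 3, 3 and 2 in control and 8, 13 and 8 in knockdown libraries. With no filter on low counts, MMP3 passed both cutoffs (adjusted p = 0.014, edgeR), while DESeq2 gave it no adjusted p. MMP1, MMP3, MMP7 and MMP10 stand in a cluster of 9 MMP genes that spans 435 kb of chromosome 11, from 102520508 to 102955732 of GRCh38. Only MMP1 of the 9 passed the filter, and 3 of them (MMP8, MMP13 and MMP27) had no count in any library.

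The promoters of MMP7 and MMP10 are shown because they belong to the secreted MMPs that were near 0, and each holds 1 AP-1, 1 TATA and 1 CCAAT motif. The sequences are the 250 bases before the gene start in RefSeq (GRCh38.p14), and capitals mark matches on either strand to the letters TGANTCA for AP-1, TATAAA for the TATA box, GGGCGG for SP1, and to the CCAAT box. Both have AP-1 letters that begin 67 bases before the start.
MMP7 (chr11:102530748-102530997, minus strand): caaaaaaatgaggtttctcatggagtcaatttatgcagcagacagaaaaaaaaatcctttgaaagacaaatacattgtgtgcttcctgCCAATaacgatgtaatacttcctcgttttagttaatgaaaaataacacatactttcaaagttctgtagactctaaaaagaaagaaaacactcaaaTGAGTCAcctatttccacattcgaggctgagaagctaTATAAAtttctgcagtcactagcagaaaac
MMP10 (chr11:102780629-102780878, minus strand): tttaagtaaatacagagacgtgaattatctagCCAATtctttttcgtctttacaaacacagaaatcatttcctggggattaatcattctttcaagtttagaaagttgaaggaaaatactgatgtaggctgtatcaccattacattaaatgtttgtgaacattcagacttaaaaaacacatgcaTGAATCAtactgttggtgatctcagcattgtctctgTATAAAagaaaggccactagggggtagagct

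All 5 membrane-bound MMPs were tested, and 1 was called, against 11.7% of all genes. MMP15 is a transmembrane enzyme that can activate the precursor of MMP2. It had 4727, 4512 and 4517 normalised counts in the controls and 2857, 2754 and 2763 after knockdown. The groups lay far apart relative to their spread, and the level fell to 60.9% of control (log2 fold change -0.72, SE 0.038, adjusted p = 1.1e-08, edgeR). MMP15 (ENSG00000102996.5) lies on chromosome 16 from 58025754 to 58046901 on the plus strand. MMP14, the main membrane activator of MMP2, was slightly higher instead, with 5296, 5139 and 5091 in control and 5728, 5658 and 5620 in knockdown libraries (log2 fold change 0.13, adjusted p = 0.0074, edgeR). In control libraries the levels per length of MMP14 and MMP15 were 34.6 ± 0.718 and 33.5 ± 0.895 RPKM (SD, n = 3 each). In knockdown libraries they were 37.9 ± 0.363 and 20.4 ± 0.420.

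MMP16, another transmembrane enzyme, was higher on adjusted p (log2 fold change 0.24, adjusted p = 0.027, edgeR), although its libraries overlapped. MMP17, which is held at the membrane by a lipid anchor, had 66.3, 63.1 and 47.7 normalised counts in control and 39.8, 39.8 and 46.5 in knockdown libraries, with a log2 fold change of -0.50 (adjusted p = 0.036, edgeR). Among the alternatives run, it passed both cutoffs only without control replicate 3 (-0.63). MMP24 had 1851 ± 41.2 and 1851 ± 103 normalised counts (SD, n = 3 each), at an adjusted p of 0.98 (edgeR). At MMP24, 19.5% of the stranded counts came from the other strand, where MMP24OS overlaps it.

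Of the 6 inhibitors of metalloproteinases, 5 were tested and A2M alone was called, against 11.7% of all genes. A2M encodes alpha-2-macroglobulin, which traps proteases of many classes. It rose from 212, 232 and 193 normalised counts in the control libraries to 357, 411 and 449 in the knockdown libraries. The lowest knockdown library exceeded the highest control library, and the mean was 1.91 times that of control (log2 fold change 0.93, SE 0.102, adjusted p = 7.4e-06, edgeR). A2M is on chromosome 12 from 9067664 to 9116229 on the minus strand. RECK, a membrane-anchored inhibitor of MMPs, was higher by less, with 1115, 1130 and 1095 in control and 1299, 1290 and 1268 in knockdown libraries (log2 fold change 0.21, adjusted p = 0.0012, edgeR).

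TIMP2, which both inhibits MMPs and helps MMP14 to activate MMP2, held the most RNA per length of all 46 genes. Its normalised counts were 24826, 26581 and 24463 in control and 23764, 23867 and 22720 in knockdown libraries. The groups were separate by a narrow margin (log2 fold change -0.11, adjusted p = 0.038, edgeR). TIMP3, which binds to the matrix, had 2267, 2298 and 2033 and 2358, 2378 and 2287, with overlap between the groups (log2 fold change 0.091, adjusted p = 0.14, edgeR). TIMP1 had 1064 ± 52.7 and 1026 ± 68.9 normalised counts (SD, n = 3 each), and its libraries overlapped too (adjusted p = 0.49, edgeR). TIMP4 was not tested, with 12, 7 and 3 counts in control and 3, 6 and 3 in knockdown libraries.

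No ADAM gene was called, although 4 of the 7 tested were lower on adjusted p, against 25% of all genes. ADAM9 and ADAM10 were the most abundant by count. ADAM9 had 23291, 23925 and 24985 normalised counts in control and 22122, 22257 and 21607 in knockdown libraries, and ADAM10, the protease that sheds E-cadherin and Notch, had 8276, 8795 and 8230 and 7515, 7393 and 7217. Both sets were without overlap, at log2 fold changes of -0.13 and -0.19 (adjusted p = 0.01 and 9.9e-04, edgeR). ADAM17, which releases TNF and EGF-family ligands, was lower by a similar amount (-0.16, adjusted p = 0.0037, edgeR). ADAM19 came nearest to the cutoff, from 5636 ± 369.9 to 3766 ± 202 normalised counts (SD, n = 3 each), which is a change of -0.58 on the log2 scale (SE 0.052, adjusted p = 1.2e-06, edgeR). It passed both cutoffs without control replicate 3 (-0.63) and without knockdown replicate 2 (-0.61).

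ADAM8, ADAM12 and ADAM15 did not reach an adjusted p under 0.05, with log2 fold changes of 0.42, -0.14 and -0.014 (adjusted p = 0.063, 0.084 and 0.84, edgeR). ADAM23, a family member without protease activity, was not tested. It had 3, 6 and 4 counts in the controls and 0, 0 and 0 after knockdown. Taken singly, each 0 allows an expected count of up to 3, and the knockdown libraries together allow less. With no filter ADAM23 passed both cutoffs (adjusted p = 0.0020, edgeR), and DESeq2 gave no adjusted p.

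The ADAMTS genes and BMP1 moved in both directions. Of 11 tested, 2 were called lower and 2 higher, against 6.43% and 5.3% of all genes. ADAMTS15, which cuts the proteoglycans versican and aggrecan, fell from 2789, 2834 and 2629 normalised counts in the control libraries to 1621, 1494 and 1525 in the knockdown libraries. Each knockdown library was far below each control library, at 56.2% of the control level (log2 fold change -0.83, SE 0.046, adjusted p = 1.5e-08, edgeR). ADAMTS5, a major aggrecan-cutting enzyme, moved the other way, with 746, 839 and 774 in control and 1179, 1210 and 1150 in knockdown libraries. The groups were well separated, but the change of 0.59 (SE 0.053, adjusted p = 1.4e-06, edgeR) lay at the fold change cutoff. It fell under the cutoff without control replicate 1 (0.55), control replicate 3 (0.58) or knockdown replicate 2 (0.57), and with DESeq2 (0.58). ADAMTS15 is on chromosome 11 from 130448645 to 130476645 on the plus strand, and ADAMTS5 on chromosome 21 from 26917922 to 26967088 on the minus strand.

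ADAMTS6, which acts on fibrillin microfibrils, rose from 189, 216 and 182 to 295, 347 and 264 normalised counts without overlap. Its log2 fold change was 0.63 (SE 0.112, adjusted p = 4.3e-04, edgeR), and 0.58 without control replicate 3 and 0.52 without knockdown replicate 2, both under the cutoff. ADAMTS9, another versican-cutting enzyme, had 26.5, 45.1 and 29.0 in control and 17.8, 22.3 and 13.6 in knockdown libraries. The margin between the groups was small at these counts (log2 fold change -0.87, SE 0.277, adjusted p = 0.02, edgeR). Its call was lost without control replicate 2 (adjusted p = 0.095), knockdown replicate 1 (0.062) or knockdown replicate 3 (0.072), and with DESeq2 (0.062).

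ADAMTS2 and BMP1 trim the amino and carboxy ends of procollagen, respectively. ADAMTS2 had 8108, 8195 and 7996 normalised counts in control and 8937, 8924 and 8997 in knockdown libraries, and BMP1 had 3753, 3331 and 3437 and 4089, 3889 and 3969. Both were higher in every knockdown library, by 0.14 and 0.18 on the log2 scale (adjusted p = 0.003 and 0.0052, edgeR). ADAMTS14, which also trims procollagen, was near the filter, with 9.82 ± 4.54 and 6.85 ± 2.95 normalised counts (SD, n = 3 each). ADAMTS1, a versican-cutting enzyme with 4647, 4838 and 4497 in control and 4263, 4298 and 4105 in knockdown libraries, was lower in every knockdown library by a small amount (log2 fold change -0.14, adjusted p = 0.0093, edgeR). ADAMTS7, ADAMTS10 and ADAMTS12 had log2 fold changes of -0.049, 0.39 and 0.14, with adjusted p from 0.075 to 0.62 (edgeR) and overlapping libraries.

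**Figure D3:**
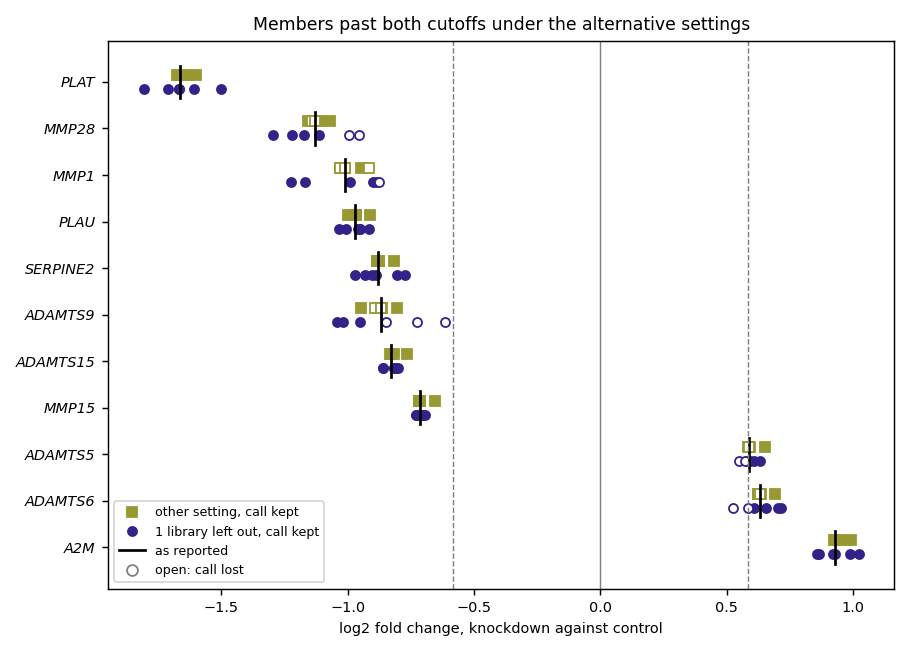
Log2 fold change (x axis) of the 11 genes past both cutoffs, one row per gene, under each alternative setting (squares) and with 1 library left out (circles), with a black bar for the value as reported and open symbols where the call was lost. PLAT, PLAU, SERPINE2, ADAMTS15, MMP15 and A2M have no open symbol, and the other 5 genes have at least 3 each.

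Both cathepsins, cysteine proteases of the lysosome that can be secreted, were lower without reaching the fold change cutoff. CTSL had 2595, 2718 and 2656 normalised counts in the controls and 2129, 2042 and 1903 after knockdown, and CTSB had 11753, 11598 and 11844 and 10249, 10448 and 9933. Neither showed any overlap between groups, with log2 fold changes of -0.39 and -0.20 (adjusted p = 1.3e-05 and 3.8e-04, edgeR).

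Levels of different genes were compared per length, in RPKM. In control libraries 20 of the 46 genes had a mean level over 10, 10 had one between 1 and 10, and 16 were under 1. TIMP2 stood first at 126 ± 5.64 (SD, n = 3), with 21.5% of the sum of all 46 levels. It was followed by ADAM9 (42.0 ± 1.49), SERPINE2 (39.6 ± 5.55), MMP14 (34.6 ± 0.718), CTSB (34.4 ± 0.365) and MMP15 (33.5 ± 0.895). The SD range of SERPINE2 overlapped those of ADAM9 and MMP14, and so did those of MMP14, CTSB and MMP15, so their order is not resolved. The first 5 genes held 47.2% of the sum in control libraries. In knockdown libraries the levels of SERPINE2 and MMP15 were 21.5 ± 2.05 and 20.4 ± 0.420. Their SD ranges overlapped those of TIMP1 (21.9 ± 1.47) and ADAM12 (20.9 ± 1.41), so the order of these 4 is not resolved either. The activators were low in comparison, PLAU at 4.24 ± 0.356 and PLAT at 4.06 ± 0.890 in control libraries and 2.16 ± 0.0895 and 1.27 ± 0.0962 in knockdown libraries. The called genes with few counts, MMP1, MMP28 and ADAMTS9, had control levels of 0.295, 0.178 and 0.0970.

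**Figure D4:**
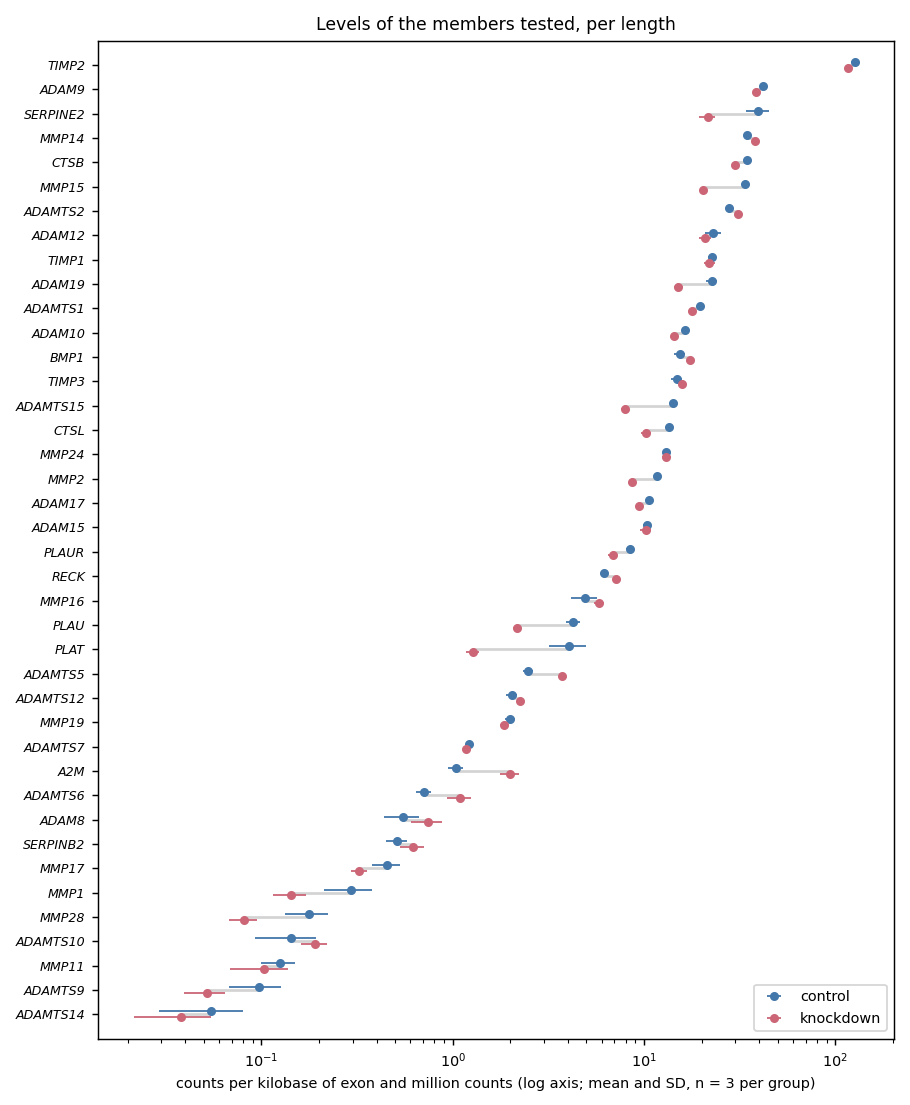
Level of the 40 genes tested per kilobase of exon, scaled to library size (RPKM, x axis, log scale), as mean and SD of 3 control (blue) and 3 knockdown (red) libraries, ordered by the control level. TIMP2 exceeds 100 in both groups, and the widest gaps between blue and red among genes with a control level over 1 are those of PLAT, PLAU, A2M and SERPINE2.

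Promoter sequences were at hand for 28 of the 46 genes, among them 4 of the 11 called genes. They are shown for those 4, SERPINE2, PLAU and MMP15, which fell, and ADAMTS6, which rose, as the 250 bases before the RefSeq start (GRCh38.p14) with capitals as for MMP7. For SERPINE2 and PLAU this start lies inside the span of the gene given above, whose annotation begins further upstream.
SERPINE2 (chr2:224031479-224031728, minus strand): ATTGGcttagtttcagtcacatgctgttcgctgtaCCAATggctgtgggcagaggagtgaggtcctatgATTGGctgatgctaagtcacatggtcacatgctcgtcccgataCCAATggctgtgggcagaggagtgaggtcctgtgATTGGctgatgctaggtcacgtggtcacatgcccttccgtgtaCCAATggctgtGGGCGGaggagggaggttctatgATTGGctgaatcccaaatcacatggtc
PLAU (chr10:73910360-73910609, plus strand): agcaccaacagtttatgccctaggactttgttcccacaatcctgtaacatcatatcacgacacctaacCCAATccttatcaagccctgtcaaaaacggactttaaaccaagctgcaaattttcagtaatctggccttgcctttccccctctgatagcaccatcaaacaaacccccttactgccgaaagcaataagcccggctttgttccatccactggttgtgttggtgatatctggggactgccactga
MMP15 (chr16:58025504-58025753, plus strand): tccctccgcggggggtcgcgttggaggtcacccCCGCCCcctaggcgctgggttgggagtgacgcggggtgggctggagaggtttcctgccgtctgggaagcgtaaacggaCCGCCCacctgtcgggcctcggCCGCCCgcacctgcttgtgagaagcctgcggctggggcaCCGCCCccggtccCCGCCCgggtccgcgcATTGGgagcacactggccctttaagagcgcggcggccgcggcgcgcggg
ADAMTS6 (chr5:65481921-65482170, minus strand): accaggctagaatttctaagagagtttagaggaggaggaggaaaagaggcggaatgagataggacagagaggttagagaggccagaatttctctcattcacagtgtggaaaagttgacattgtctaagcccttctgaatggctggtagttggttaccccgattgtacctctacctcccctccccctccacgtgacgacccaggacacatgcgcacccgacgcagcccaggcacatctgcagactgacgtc
The 4 promoters differ in these letters. That of SERPINE2 holds 1 SP1 motif and 7 CCAAT motifs on either strand. This number of CCAAT motifs is reached or passed by 6 of the 27305 promoters of this length, SERPINE2 included. The 7 lie in a stretch that recurs with few differences along the printed window, so they are not separate occurrences. MMP15 holds 5 SP1 motifs and 1 CCAAT motif, PLAU holds 1 CCAAT motif, and the ADAMTS6 window holds none of the 4 motifs. No window of the 4 holds an AP-1 or TATA motif. AP-1 letters were in 5 of the 28 promoters (17.9%), MMP7, MMP10, ADAMTS12, PLAUR and SERPINB2, against 6.6% of all 27305. SP1 letters were in 75% against 42.3%, TATA letters in 14.3% against 11.1%, and CCAAT letters in 35.7% against 33%. Of the 10910 promoters of genes tested here, 3.78% held AP-1, 67.7% SP1, 5.21% TATA and 35% CCAAT letters. These shares are not on the same basis as those of the 28, which include MMP7, MMP10, TIMP4 and ADAM23, not tested here. MMP7 and MMP10 are among the promoters with AP-1 and with TATA letters. The motifs were searched on both strands and none contains another, and a match is a description of the sequence only.

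An siRNA can lower RNAs other than its target when bases 2 to 8 of its guide strand, the seed, pair with a 3′ UTR. The full target of LINC01133a was found in 3 transcripts of LINC01133. The guide strand of LINC01133a is shown with its seed in capitals, above sites of 3 of the genes, which illustrate both directions of change, with the 7 bases that pair with the seed in capitals (GENCODE v44 canonical transcripts, GRCh38).
LINC01133a guide: uCCAUUCUcagguaacuuc
ADAMTS9 (chr3:64516163-64516189, minus strand): caggatgcacAGAATGGgcatgacctt
ADAM10 (chr15:58596936-58596962, minus strand): aggataacagAGAATGGtggtattcag
ADAMTS2 (chr5:179112466-179112492, minus strand): tattttccagAGAATGGtgctttgtga
Of the 40 genes tested, 7 (17.5%) hold such a match of 7 bases in the 3′ UTR, against 17.1% of 12538 tested genes with a 3′ UTR. They are MMP16, MMP19, TIMP3, ADAM10, ADAMTS2, ADAMTS9 and ADAMTS12, whose log2 fold changes lay between -0.87 (ADAMTS9) and 0.24 (MMP16). Among the 11 called genes, ADAMTS9 alone holds one. A match extended by an A to 8 bases was in none of the 40, against 5.77% of the 12538. The part of these matches in the changes was not tested.

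A wider set of 138 genes, in 6 lists of other proteases, inhibitors and partners, gave the surroundings of the 46. Of these 138, 74 were tested and 18 called, 4 higher and 14 lower, which is 24.3% against 11.7% of all genes. Their median log2 fold change was -0.12. In the list of membrane and serine proteases with their inhibitors, 8 of 16 tested genes were called, each lower, with a median of -0.68. Of all genes, 6.43% were called lower. Among the cathepsins and cystatins 1 of 12 was called, and among the other plasminogen and serpin genes 1 of 11. For other ADAM and ADAMTS genes it was 3 of 13, for other metalloproteinases 2 of 3, and for activators, partners and co-factors 3 of 19.

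The 4 genes called higher in the wider set were SERPINB9, PAPPA, TLL1 and PAPLN. SERPINB9, which inhibits granzyme B, rose from 721 ± 78.9 to 1722 ± 178 normalised counts (SD, n = 3 each), and PAPPA, a metalloproteinase that cuts IGF-binding proteins, from 747 ± 96.8 to 1666 ± 134. TLL1, which trims procollagen like BMP1, rose to 2.05 times its control level, and PAPLN, which encodes papilin, to 1.57 times. Adjusted p-values of these 4 lay between 6.6e-08 and 1.1e-04 (edgeR). Among called genes of the wider set with a mean of at least 50 normalised counts and no overlap between groups, the lowest log2 fold changes were those of ADAMTS17, SLPI, CEMIP and RARRES1. SLPI, a secreted inhibitor of neutrophil elastase, fell from 1138 ± 85.5 to 321 ± 46.5 normalised counts (SD, n = 3 each), and CEMIP, which takes part in breaking down hyaluronan, from 6974 ± 1302 to 2550 ± 242. ADAMTS17 was left at 27.3% and RARRES1 at 38.7% of the control level. Adjusted p-values of these 4 lay between 5.0e-09 and 1.8e-07 (edgeR).

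**Figure D5:**
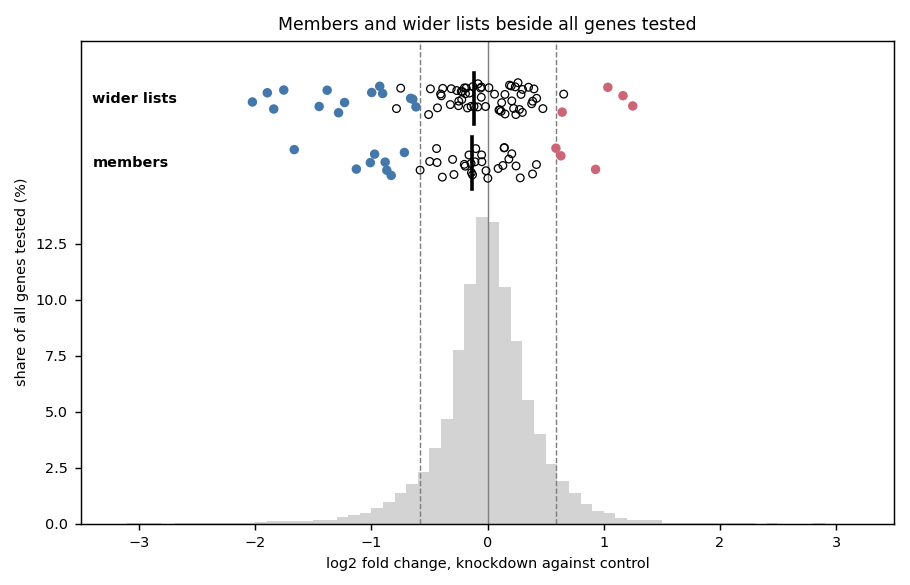
Distribution of log2 fold changes over all 15155 genes tested (grey, share in percent on the y axis), with the 40 members and the 74 tested genes of the wider lists as points above it, each row with its median as a black bar. Filled points passed both cutoffs, and the members' median lies at -0.13 and that of the wider lists at -0.12, to the left of the grey line at the median of all genes.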

How the data were processed

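RNA-seq of 12Z cells was analysed (3 control and 3 knockdown libraries). The authors aligned reads with STAR 2.7.6a to GRCh38.p13 with Gencode v36 annotation, kept uniquely mapped reads, and deposited raw counts per gene in 3 columns by strand. The reverse-strand column, with 93.9% to 94.1% of stranded counts, was used. Gene symbols came from a table of names (60463 of 60660 genes matched).

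Counts were filtered (filterByExpr, minimum count 10), scaled by TMM (factors 0.968 to 1.03) and tested with edgeR 4.0.16 (R 4.3.3). Condition was the only term, and the filter, fit and adjustment covered all genes. Normalised counts are scaled to the mean effective library size. Standard errors are the log2 fold change divided by the root of the F statistic. Levels per length (RPKM) were computed from the counts with union exon lengths of GENCODE v44. The scripts were tested on simulated data.

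The 46 genes and the lists were chosen with earlier results of these data known. All 46 were named, as were, from the wider lists, the 4 highest and 4 lowest called genes with a mean normalised count of at least 50 and no overlap. Alternatives were DESeq2 1.42.0, other scalings and filters, a block for the replicate number, the unstranded column, glmTreat, and each library left out. Precision is given by the SD or standard error of 3 libraries per group. P-values set the difference between groups against the spread between these libraries, which the fit estimates with information from all genes.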

Additional observations from a re-analysis of the deposited data

How the results depend on the processing

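Over the 40 genes tested and the alternatives, 522 single-gene results kept their direction and their side of the cutoffs, 21 lost the call, 3 gained it and 11 changed direction. PLAT, PLAU, SERPINE2, ADAMTS15, MMP15 and A2M kept their calls under all 14. The calls of MMP1, MMP28, ADAMTS9, ADAMTS5 and ADAMTS6 were each lost under at least 3 of them. With DESeq2, 5 genes were called lower and 2 higher, beside 1462 of all 29200 genes fitted. With a test against a fold change of 1.5 (glmTreat), 5 were called lower and 1 higher, beside 404 lower and 174 higher of all genes and 9 lower of the wider lists. When single libraries were removed, the number called ranged from 7 to 9 lower and from 1 to 3 higher, with 1 higher without control replicate 3 or without knockdown replicate 2. With no filter, 13 of 46 were called, beside 1963 of all 29200 genes.

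Small changes reversed direction. MMP24 was at -0.0019 with DESeq2, -0.017 in the unstranded column, and from -0.021 to 0.049 with a library left out (-0.014 without control replicate 1, -0.00028 without control replicate 2, -0.015 without knockdown replicate 1, -0.021 without knockdown replicate 2). ADAM15 was at 0.048 with library size alone, and from -0.042 to 0.042 with a library left out (0.019 without control replicate 1 and 0.042 without knockdown replicate 3). TIMP1 (0.011) and ADAMTS7 (0.013) turned with library size alone. None of these had an adjusted p under 0.05, and the cause was not tested.

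The replicate number as a block left 1747 of all genes called and the same 11 of the 40. Same-numbered libraries did not deviate together (correlations -0.056, -0.0013 and 0.12 over 11178 genes), so the numbers were not taken as pairs. Depth limits MMP3, MMP7, MMP9, MMP10, TIMP4 and ADAM23, which had at most 13 counts in a library.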
